A study of Hernandia nymphaeifolia with 9 samples.

Results

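The most abundant transcripts of unstressed leaves were followed in seedlings of Hernandia nymphaeifolia, a tree of tropical shores that is counted among the associates of mangroves. The members were 125 assembled genes out of 315331. They were selected on their counts in fresh water leaves alone: the counts of all isoforms of an assembled gene were added, divided by the total of the library and multiplied by 1000000 to give CPM (counts per 1000000), and genes with a mean of at least 500 CPM over the 3 control libraries were kept. The salt libraries played no part in the choice. The control level of the members is therefore a description, and so is a comparison with control leaves, since the control libraries stand on both sides of it. The comparison of the salt times with each other contrasts no control library, although the control libraries enter the estimate of spread that all 9 libraries share in the fit.

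Leaf RNA carrying a poly(A) tail was sequenced from 9 seedlings, 1 library per seedling. All seedlings were 2 years old and stood in water up to the branches for 3 h of every 12 h, as a tide would do. The 3 control seedlings stood in fresh water, 3 stood in water with 300 mM NaCl and were sampled at 7 d, and 3 in water with 300 mM NaCl were sampled at 14 d. The day on which control leaves were taken is not given in the labels, so time in the experiment and time in salt cannot be told apart. Libraries held 13166552 to 14201943 estimated counts. Replicates of a group differed by more than counting noise, with a chi-square per degree of freedom of 4.93 to 18. At 14 d the value was 13.2 and 14.7 for the pairs with replicate 3 and 5.45 for the other pair, and in control leaves it was 10.1 to 18. Results that rest on 1 library are given with and without it.

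In green leaves a small number of genes usually supplies a large part of the messenger RNA. In well studied plants many of these encode the light-harvesting proteins of the chloroplast, the small subunit of Rubisco or other enzymes of carbon fixation and photorespiration. Proteins that bind metals are also among them. Salt stress in plants limits water uptake and brings sodium into the leaf, and photosynthesis and growth commonly slow. No table used here pairs the assembled genes with names, so none of the 125 is assigned to any of these families. Genes are called by their rank in mean control CPM, and identifiers are printed for 4 of them. Transcript lengths were not used here. A rank therefore orders genes by the counts they take up, which a long transcript does more than a short one, and not by molecules.

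The 125 genes held 17.3%, 15.9% and 14.2% of all counts in control replicates 1, 2 and 3. They held 11.8%, 12.4% and 12.1% in the 7 d libraries and 13.1%, 11.9% and 12.5% in the 14 d libraries. Every salt library thus lay below every control library. Group means were 15.8 ± 1.55% in control leaves, 12.1 ± 0.332% at 7 d and 12.5 ± 0.557% at 14 d (SD, n = 3 each). No test is attached to these sums, because the genes were chosen for a high level in the control libraries.

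The spread among control leaves came largely from the top of the list. The gene of rank 1 alone took up 2.8%, 2.52% and 0.453% of the counts of control replicates 1, 2 and 3. The genes of ranks 1 to 10 together held 6.93%, 6.34% and 3.51% there, 4.9 ± 0.351% at 7 d and 4.58 ± 0.815% at 14 d (SD, n = 3), so that the 3 groups overlapped. The other 115 genes, ranks 11 to 125, were much more even. They held 10.3%, 9.59% and 10.7% in control leaves, 7.23%, 7.2% and 7.18% at 7 d, and 7.65%, 8.16% and 7.95% at 14 d. For these genes the 7 d libraries were all lowest, the control libraries all highest and the 14 d libraries all between them.

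**Figure D1:**
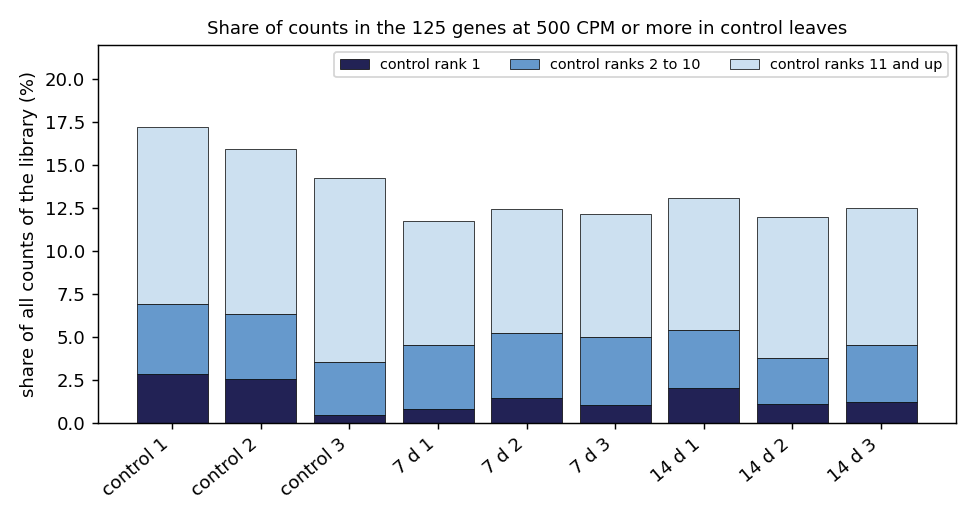
Stacked bars give the share of all counts of each library, in percent, that fell on the gene of control rank 1, on ranks 2 to 10 and on ranks 11 to 125. The bars of control replicates 1, 2 and 3 reach 17.3, 15.9 and 14.2%, and those of the 6 salt libraries 11.8 to 13.1%. Rank 1 shrinks to 0.453% in control replicate 3, while ranks 11 to 125 stay near 10% in all 3 controls.

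Control replicate 3 differed from the other controls in ranks 1, 2 and 4. Rank 1 was at 28020.4, 25166 and 4529 CPM in control replicates 1, 2 and 3, at 7862, 14546 and 10296 CPM in the 7 d libraries and at 20026, 10455 and 12101 CPM in the 14 d libraries. Rank 2 was at 9459, 9446 and 3237 CPM in control leaves, 6279.9, 6084 and 5102 CPM at 7 d, and 6966, 3964 and 6492 CPM at 14 d. Rank 4 was at 5838, 5184 and 1114 CPM in control leaves, 1704, 2418 and 1854 CPM at 7 d, and 4938, 2713 and 2444 CPM at 14 d. In each of these genes control replicate 3 was the lowest of all 9 libraries, and control replicates 1 and 2 were the highest. None of them differed between groups by the test over all genes (edgeR, quasi-likelihood, adjusted over all genes by Benjamini-Hochberg, the edgeR adjusted p in what follows, was 0.109 to 0.945 over the 3 comparisons). Without control replicate 3, rank 1 was called lower both at 7 d, with a fitted log2 change of -1.31, and at 14 d, with -0.97 (edgeR adjusted p = 0.00612 and 0.0423). Rank 2 had changes of -0.71 and -0.77 (edgeR adjusted p = 0.0287 and 0.0313). Rank 4 without that library had a fitted log2 change of -1.49 at 7 d (edgeR adjusted p = 0.00235) and of -0.77 at 14 d (edgeR adjusted p = 0.0869). With all libraries and no filter on low counts, calls were made for rank 1 at 7 d (edgeR adjusted p = 1.92e-11) and 14 d (edgeR adjusted p = 0.000446), for rank 2 at 14 d (edgeR adjusted p = 0.0133) and for rank 4 at 7 d (edgeR adjusted p = 1.35e-14) and between the salt times (edgeR adjusted p = 1.35e-06). The calls against control thus depend on control replicate 3, on the filter or on both. The call of rank 4 between the salt times was made only with no filter. Without control replicate 3 that difference was 0.72 (edgeR adjusted p = 0.084). The fitted change of rank 1 at 7 d was -0.82 without the filter and -0.84 with it, where the edgeR adjusted p was 0.231. The lower p-value thus did not come from a larger change or from other libraries. Values without the filter, here and below, show dependence on processing and are not read as evidence of a difference. Leaving out ranks 1, 2 and 4 was a choice made after their values were seen. The other 122 genes held 12.7 ± 0.695% of the counts in control leaves, 10.2 ± 0.161% at 7 d and 10.2 ± 0.268% at 14 d (SD, n = 3).

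The remaining genes of the first 10 followed several courses. Rank 3 rose, from 6289, 5036 and 5432 CPM in control leaves to 15912, 16881 and 20071 CPM at 7 d and 10956, 8315 and 9659.7 CPM at 14 d. The groups did not overlap, and at 7 d this gene took the first place in the leaf from rank 1. Its fitted log2 change was 1.64 ± 0.16 (SE) at 7 d and 0.72 ± 0.16 (SE) at 14 d (edgeR adjusted p = 1.12e-05 and 0.00664).

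Ranks 5 and 6 were lowest at 7 d. Rank 5 was at 4705, 3389 and 3846 CPM in control leaves, 930.4, 1105 and 936 CPM at 7 d, and 2504, 2825 and 2153 CPM at 14 d. It went from place 5 to place 41 at 7 d and stood at place 8 at 14 d, and its 3 groups did not overlap. Rank 6 was at 5104, 3345 and 3457 CPM in control leaves, 1469, 2121 and 1264 CPM at 7 d, and 2950.4, 3918 and 2435 CPM at 14 d. Its 7 d libraries lay below all others, while control and 14 d leaves overlapped. At 7 d the fitted log2 change was -2.03 ± 0.16 for rank 5 and -1.33 ± 0.23 for rank 6 (SE; edgeR adjusted p = 2.34e-06 and 0.000956). The difference between the salt times in rank 6, 0.89 (edgeR adjusted p = 0.0237), lost its call without 7 d replicate 1 or 3 or 14 d replicate 1 or 2 (edgeR adjusted p = 0.0566 to 0.12).

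Ranks 8 and 10 were lowest at 14 d. Rank 8 was at 3352, 2898 and 2977 CPM in control leaves, 1566, 2134 and 2031 CPM at 7 d, and 954, 1086 and 1107 CPM at 14 d. Rank 10 was at 2269, 2414 and 2509.7 CPM in control leaves, 1736, 1542 and 1562 CPM at 7 d, and 673, 666 and 776 CPM at 14 d. Both fell at 7 d and fell further by 14 d, with no overlap between any of the groups, and rank 10 was 3.4-fold below its control mean at 14 d. The fitted log2 changes of rank 10 were -0.59 ± 0.11 and -1.84 ± 0.12 (SE; edgeR adjusted p = 0.00203 and 9.27e-07), and those of rank 8 -0.71 ± 0.13 and -1.63 ± 0.14 (SE; edgeR adjusted p = 0.00166 and 6.23e-06).

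Ranks 7 and 9 had no call in any of the 3 comparisons with all libraries and the filter on low counts. Rank 7 was at 2069, 3933 and 4706 CPM in control leaves, 4114, 2437 and 2812 CPM at 7 d, and 1444, 1521 and 3464 CPM at 14 d. Rank 9 was at 2162, 2597 and 3309.6 CPM in control leaves, 3662, 2898 and 3709.9 CPM at 7 d, and 2664, 2324 and 4808 CPM at 14 d. In both genes 14 d replicate 3 was well above the other 14 d libraries. Without it, rank 7 was called lower at 14 d, with fitted log2 changes of -1.32 against control and -1.12 against 7 d (edgeR adjusted p = 0.00478 and 0.0144). Without control replicate 1 it was called at 14 d too, with -1.08 (edgeR adjusted p = 0.0348), and with no filter both 14 d differences were called (edgeR adjusted p = 1.15e-09 against control and 1.7e-05 against 7 d). In total 12 of the 125 genes were at least 1.5-fold higher in 14 d replicate 3 than the mean of the other two, and 11 were at least 1.5-fold lower.

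**Figure D2:**
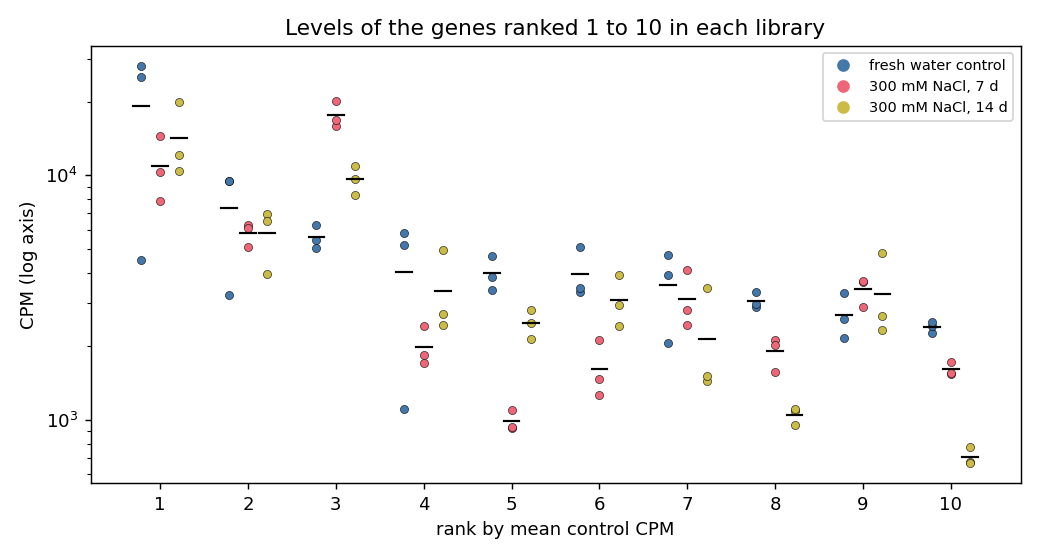
Points give CPM on a log axis for the genes of control ranks 1 to 10 in each of the 9 libraries, by group, and black lines give group means. Ranks 1, 2 and 4 have 1 control library far below the other two, rank 3 is higher in all salt libraries, ranks 5 and 6 are lowest at 7 d and ranks 8 and 10 at 14 d.

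After 7 d of salt, the change of these genes was mostly a fall. Of the 125 genes, all of which had enough counts to be tested, 73 were lower than in control leaves and 10 were higher, while 42 did not pass the test. Over all 62564 genes tested, 25.2% were called, 13.9% lower and 11.3% higher. Calls were made at an edgeR adjusted p below 0.05. By the fitted change, 44 of the 73 falls were at least 2-fold and 16 at least 4-fold. The median fitted log2 change was -0.74 over the 125 genes and -0.02 over all genes tested. Among the 1662 genes at 100 to under 500 CPM in control leaves, chosen on the same libraries, it was -0.09, with 526 called lower and 223 higher. Because the control libraries chose the members, the members' share is not read against these values. The count of members called was 77 without 7 d replicate 1 and 77 without 7 d replicate 3. It was 89 without control replicate 3 and 90 without 14 d replicate 3, which enters the shared estimate of spread. Genes called lower at 7 d took up 7.58 ± 0.561% of the counts in control leaves, 3.06 ± 0.171% at 7 d and 4.47 ± 0.431% at 14 d (SD, n = 3). Genes called higher took up 1.34 ± 0.0841%, 3.32 ± 0.292% and 2.31 ± 0.213% (SD, n = 3). Both sets were chosen by the call in these libraries, so their fall or rise from control to 7 d follows from the choice. In leaf tissue as a whole, fewer cells of a type and less RNA per cell cannot be told apart, and CPM are shares of the RNA sequenced, so a rise of other genes lowers them too.

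Among genes called lower at both salt times without overlap with control, 2 had the lowest mean changes over these times. Both lost most of their level by 7 d. TRINITY_DN4762_c0_g1, rank 47, was at 644, 1109.7 and 1204 CPM in control leaves, 59.3, 138 and 99.3 CPM at 7 d, and 111, 254 and 162 CPM at 14 d. Every salt library was far below every control library. Its mean was 9.96-fold lower at 7 d, a fitted log2 change of -3.34 ± 0.34 (SE), and 5.61-fold lower at 14 d, a change of -2.56 ± 0.33 (SE), with edgeR adjusted p = 1.65e-05 and 0.000174. TRINITY_DN72_c0_g1, rank 96, was at 516, 688 and 554 CPM in control leaves, 50, 95.3 and 88.3 CPM at 7 d, and 108, 175 and 55.5 CPM at 14 d. It fell 7.52-fold at 7 d and 5.2-fold at 14 d, log2 changes of -2.93 ± 0.34 and -2.44 ± 0.33 (SE), with edgeR adjusted p = 4.85e-05 and 0.000292. The difference between the salt times in rank 96 was 0.49 and was not called (edgeR adjusted p = 0.377). Without 14 d replicate 3 it was called, at 0.81 (edgeR adjusted p = 0.0272). Ranks 47 and 96 left the upper ranks of the leaf, with places 1885 and 2633 at 7 d.

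Rank 121 fell as far as rank 96 at 7 d. It was at 567, 511 and 479.8 CPM in control leaves and at 55.1, 89.5 and 61.6 CPM at 7 d, and stood at 246, 319.5 and 231 CPM at 14 d, so that the 3 groups were fully apart. Its fitted log2 change was -2.94 ± 0.19 (SE) at 7 d and -1.04 ± 0.17 (SE) at 14 d (edgeR adjusted p = 5.25e-07 and 0.00122).

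The largest fitted fall at both times belonged to rank 104, which owed its place on the list to 1 library. It was at 56.1, 1443 and 179 CPM in control leaves, 45.4, 55.4 and 33.2 CPM at 7 d, and 11.2, 15 and 61.4 CPM at 14 d. Only control replicate 2 was above 500 CPM, and control replicate 1 lay within the range of the salt libraries at 14 d. The fitted log2 changes of -3.63 ± 0.93 and -4.3 ± 0.96 (SE; edgeR adjusted p = 0.0119 and 0.00796) became -1.43 and -2.11 without control replicate 2 (edgeR adjusted p = 0.117 and 0.0403). The 7 d call was also lost without 7 d replicate 1, at -3.64 (edgeR adjusted p = 0.0507), and without 7 d replicate 3, at -3.45 (edgeR adjusted p = 0.0614).

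Of the 10 genes that rose at 7 d, 4 did so at least 2-fold. TRINITY_DN1496_c0_g3, rank 69, was at 808, 689 and 736 CPM in control leaves, 2552, 2217 and 2841 CPM at 7 d, and 1535, 1240.4 and 1957 CPM at 14 d. It stood at place 7 in 7 d leaves, and its groups did not overlap. The fitted log2 change was 1.75 ± 0.17 at 7 d and 1.01 ± 0.17 at 14 d (SE; edgeR adjusted p = 1.14e-05 and 0.00114). It was lower at 14 d than at 7 d, with a log2 difference of -0.74 (edgeR adjusted p = 0.0125), a call that was lost without 14 d replicate 2 (-0.58, edgeR adjusted p = 0.0568) or 7 d replicate 3 (-0.65, edgeR adjusted p = 0.0665). TRINITY_DN16918_c0_g4, rank 110, was at 693, 403 and 537 CPM in control leaves, 1882, 1521 and 1539 CPM at 7 d, and 1384, 1501 and 1404 CPM at 14 d. All salt libraries were at least 1384 CPM and all controls at most 693 CPM. Its log2 changes were 1.57 ± 0.19 and 1.31 ± 0.19 (SE; edgeR adjusted p = 5.63e-05 and 0.000373).

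After 14 d of salt, 66 of the 125 genes were lower than in control leaves, 5 were higher and 54 did not pass the test. Over all genes tested, 16.4% were called, 8.4% lower and 7.97% higher. Of the 66 falls, 27 were at least 2-fold and 5 at least 4-fold by the fitted change. The median fitted log2 change was -0.49 over the 125 genes and 0.01 over all genes tested. It was -0.16 among the 1662 genes at 100 to under 500 CPM in control leaves, of which 459 were called lower and 124 higher. This comparison shares its control libraries with the one at 7 d, so both sets of values stand side by side and are not counted against each other. Genes called lower at 14 d took up 6.84 ± 0.47% of the counts in control leaves, 3.08 ± 0.0959% at 7 d and 3.59 ± 0.288% at 14 d (SD, n = 3). This set too was chosen by the call, so its fall from control to 14 d follows from the choice.

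The largest rise at 14 d was that of rank 71. It was at 834, 632 and 764 CPM in control leaves, 1784, 1571 and 1281 CPM at 7 d, and 2764, 2875 and 1771 CPM at 14 d. Salt libraries of both times lay above all controls, by a log2 change of 1.03 ± 0.2 at 7 d and of 1.66 ± 0.2 at 14 d (SE; edgeR adjusted p = 0.00204 and 0.000118). The salt times overlapped in this gene through 14 d replicate 3, and their difference of 0.63 was not called (edgeR adjusted p = 0.0583). It was called without 14 d replicate 3, at 0.82 (edgeR adjusted p = 0.00271), and without control replicate 1, at 0.62 (edgeR adjusted p = 0.0461). With all libraries it was called by DESeq2 (adjusted p = 0.0488), and in edgeR with scaling by total counts (edgeR adjusted p = 0.0305) and with no filter (edgeR adjusted p = 0.00018).

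**Figure D3:**
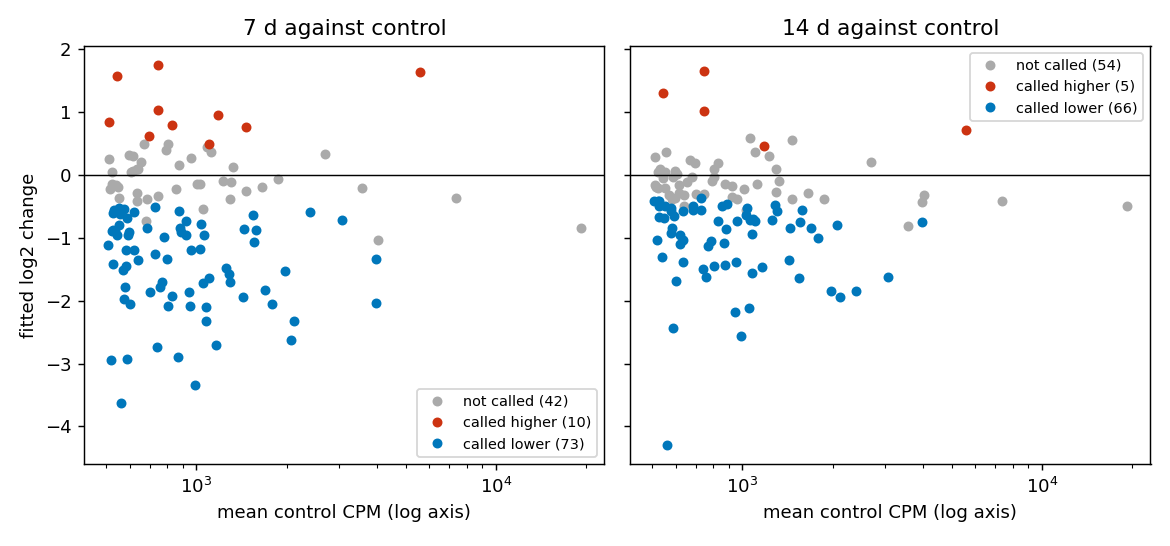
Each point is 1 of the 125 genes, with mean control CPM on a log axis and the fitted log2 change at 7 d (left) and 14 d (right). Blue points below 0 are the 73 and 66 genes called lower, red points the 10 and 5 called higher. The points at the far right, ranks 1 and 2, are grey in both panels.

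Between 7 and 14 d of salt 59 of the 125 genes differed, or 47.2%. Control libraries enter this test through the shared estimate of spread, and the count was 61 with the salt libraries alone in the fit and 57 to 65 without 1 control library. Of all genes tested, 11.3% did. At 14 d 43 members were higher than at 7 d, or 34.4%, and 16 were lower, or 12.8%. Over all genes tested 6.89% were higher and 4.37% lower. Calls become easier with more counts, and among the 1662 genes at 100 to under 500 CPM in control leaves 13.3% were higher and 12% lower, 25.3% in all. Against these less abundant genes the members' share was larger for higher calls and close to level for lower calls. This is a description of both lists, without a test of the difference. The median fitted log2 difference was 0.23 over the 125 genes, -0.07 in the lower band and 0.01 over all genes tested. Genes higher at 14 d held 4.42 ± 0.495% of the counts in control leaves, 1.53 ± 0.133% at 7 d and 3.13 ± 0.383% at 14 d (SD, n = 3). Those lower at 14 d held 2.2 ± 0.129%, 3.42 ± 0.281% and 1.97 ± 0.155% (SD, n = 3). Both sets were chosen by the call between the salt times, so the direction of their change from 7 d to 14 d follows from the choice. The count of 59 was 74 without 14 d replicate 3 and 42 without 14 d replicate 2 or 7 d replicate 3, while that of all genes, 7045, ran from 3358 to 9429 with a library left out. The count of 16 was 9 without 7 d replicate 3, 9 without 14 d replicate 2 and 27 without 14 d replicate 3.

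The genes with the largest gain from 7 d to 14 d were ranks 121, 12 and 58. Rank 121, given above, gained 1.90 ± 0.18 (SE) on the log2 scale (edgeR adjusted p = 4.7e-05). Rank 12 was at 341, 359 and 323 CPM at 7 d and at 1223, 1492 and 1072 CPM at 14 d, where control leaves had 2447, 1719 and 2042 CPM. It gained 1.84 ± 0.16 (SE) on the log2 scale (edgeR adjusted p = 3.53e-05). Rank 58 was at 132, 117 and 110.4 CPM at 7 d and at 468, 518 and 315 CPM at 14 d, where control leaves had 1073, 648 and 889.9 CPM, and it gained 1.81 ± 0.22 (SE; edgeR adjusted p = 0.000245). In ranks 12 and 58 as in rank 121, every 14 d library was above every 7 d library and below every control library.

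The genes with the largest loss from 7 d to 14 d were ranks 10, 37 and 112. Rank 10, given above, lost 1.25 on the log2 scale, a difference of -1.25 ± 0.11 (SE; edgeR adjusted p = 4.04e-05). Rank 37 was at 1537, 1489.8 and 1487 CPM at 7 d and at 796, 794 and 504 CPM at 14 d, with 1045, 973 and 1231 CPM in control leaves. It thus lay above the control libraries at 7 d and below them at 14 d. Its difference between the times was -1.16 ± 0.18 (SE; edgeR adjusted p = 0.00118). Against control the change at 7 d was 0.45 (edgeR adjusted p = 0.0746) and that at 14 d -0.7 (edgeR adjusted p = 0.0145). The 14 d call was lost without control replicate 3, at -0.60 (edgeR adjusted p = 0.0559), and the 7 d change was called without 14 d replicate 3, at 0.46 (edgeR adjusted p = 0.00783). With all libraries of the groups compared, the 7 d change was also called in a fit of those 2 groups, with scaling by total counts and with no filter (edgeR adjusted p = 0.0207, 0.046 and 0.00836). Rank 112 was at 456, 469.9 and 536 CPM at 7 d and 244, 242 and 202 CPM at 14 d, with 593, 488 and 531 CPM in control leaves. Control and 7 d leaves overlapped, and 14 d leaves were below both, with a log2 difference of -1.14 ± 0.14 (SE) from 7 d (edgeR adjusted p = 0.000252).

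**Figure D4:**
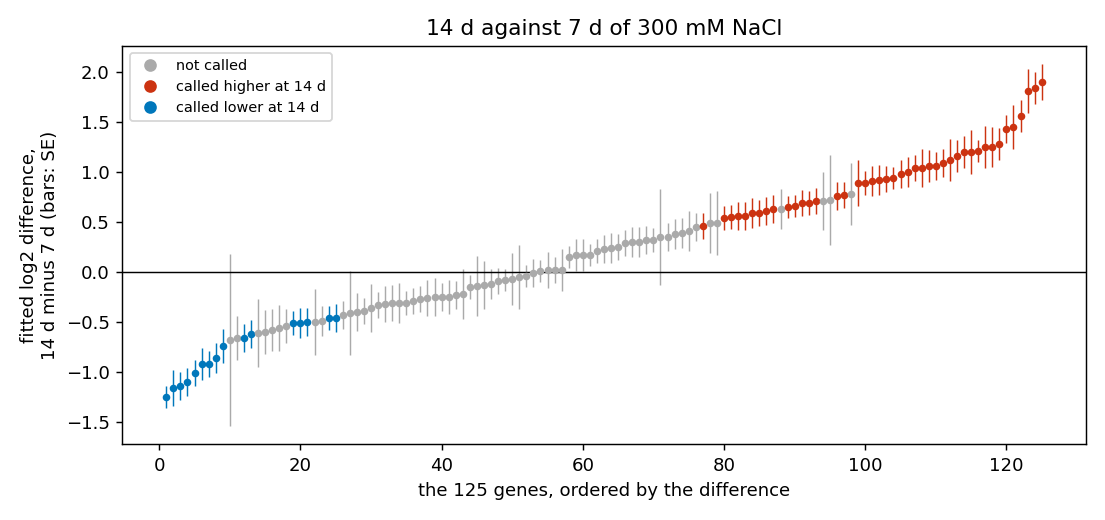
Points give the fitted log2 difference between 14 d and 7 d for the 125 genes in the order of its size, and bars give the SE. The 43 genes called higher at 14 d (red) reach 1.90 and the 16 called lower (blue) reach -1.25.

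Replicate control leaves agreed closely in most of the 125 genes. The coefficient of variation (SD as a share of the mean) over the 3 control libraries had a median of 13.1%, against 9.28% at 7 d and 13.2% at 14 d. It was highest, 137%, in rank 104, followed by 66.6% in rank 1 and 63.3% in rank 4, and above 40% in 8 genes. It was lowest in ranks 52, 113 and 109. Rank 52, with a coefficient of 1.25%, was at 914, 920.0 and 936 CPM in control leaves, 574, 612 and 508 CPM at 7 d and 864, 1013 and 699.6 CPM at 14 d. Rank 113, with 1.31%, was at 529.6, 532 and 543 CPM in control leaves, 280.1, 324 and 273 CPM at 7 d and 567, 643 and 535 CPM at 14 d. Both were called lower at 7 d, with log2 changes of -0.73 ± 0.14 and -0.89 ± 0.11 (SE; edgeR adjusted p = 0.0019 and 0.000105), and overlapped with control at 14 d. The difference between the salt times in rank 52, 0.56 (edgeR adjusted p = 0.0215), lost its call without 7 d replicate 1 or 3 or 14 d replicate 1 or 2 (edgeR adjusted p = 0.0599 to 0.113). Rank 109, with 2.85%, was at 561, 530.3 and 551 CPM in control leaves, 425, 465 and 571 CPM at 7 d and 331, 309 and 429 CPM at 14 d. Against control it was called at 14 d, with -0.69 ± 0.15 (SE; edgeR adjusted p = 0.0057), and not at 7 d, with -0.19 (edgeR adjusted p = 0.386). Its difference between the salt times, -0.51 (edgeR adjusted p = 0.0421), was lost without control replicate 2, 7 d replicate 2 or 3, or 14 d replicate 1 or 2 (edgeR adjusted p = 0.0528 to 0.187). It was lost too in a fit of the salt groups alone (edgeR adjusted p = 0.0586) and with scaling by total counts (edgeR adjusted p = 0.0627).

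**Figure D5:**
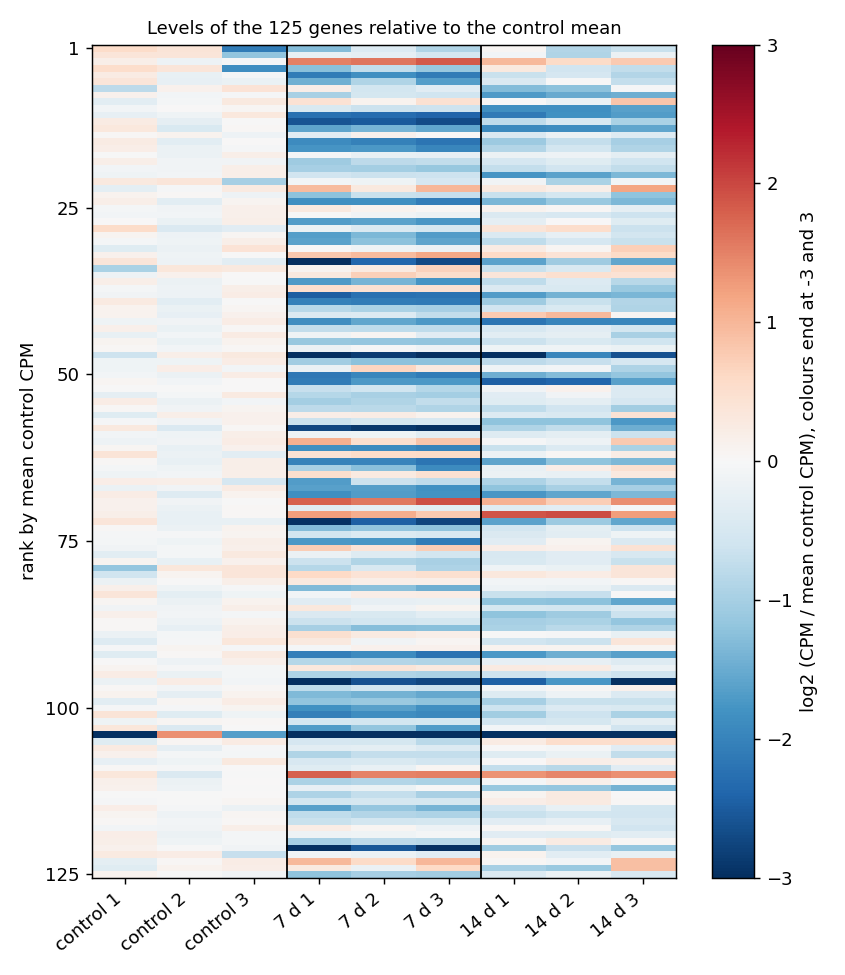
Rows are the 125 genes by control rank and columns the 9 libraries, and colour gives the log2 ratio of CPM to the mean of the control libraries, cut off at -3 and 3. Most rows are blue at 7 d and paler at 14 d, a few such as ranks 3, 69, 71 and 110 are red at both times, and the row of rank 104 is red in control replicate 2 only.

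Many members fell out of the range by which they had been chosen, and other genes entered it. Some turnover follows from a cutoff set on the control means, and its part in these counts was not tested. At 7 d 59 of the 125 genes had a group mean of 500 CPM or more, and at 14 d 82 had. Of the others, 21 were under 250 CPM at 7 d and 6 at 14 d. At 7 d 46 genes outside the list reached 500 CPM, with a median of 231 CPM and a range of 2.3 to 492 CPM in control leaves, and at 14 d 35 did, with a median of 229.5 CPM and a range of 0.403 to 492 CPM. The genes at 500 CPM or more thus numbered 125 in control leaves, 105 at 7 d and 117 at 14 d, and held 15.8 ± 1.55%, 14 ± 0.099% and 13.9 ± 0.946% of the counts of the group in which they were counted (SD, n = 3). Each list was chosen on the group in which its share is given. The cutoff itself lies in a dense part of the range. The last genes inside it, ranks 123, 124 and 125, had control means of 512, 512 and 506 CPM, and the first 3 outside it 492, 492 and 488 CPM. Of the members, 100 were at 500 CPM or more in all 3 control libraries, and 4 were so in 1 control library only. The gene of rank 125 was at 545, 503 and 471 CPM in control leaves, and the first outside, rank 126, at 329, 546 and 602 CPM.

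Genes were also chosen on 2 control libraries and set against the control library left out. This gave 122, 125 and 124 genes without control replicates 1, 2 and 3, of which 115, 122 and 121 were among the 125. In the library left out these genes held 16.8%, 15.8% and 14% of the counts, and 15%, 15.8% and 16.6% in those that chose them. The median log2 ratio of their TMM-scaled group mean to the library left out was -0.75, -0.66 and -0.73 at 7 d and -0.56, -0.39 and -0.55 at 14 d. The ratio was below 0 for 72.8 to 76.6% of the genes at 7 d and for 76.0 to 81.5% at 14 d. Against the control libraries that chose these genes, the medians were -0.71, -0.78 and -0.79 at 7 d and -0.50, -0.56 and -0.51 at 14 d. The fitted medians of the full list were -0.74 and -0.49. The lists shared most of their genes with the full list, and the part of the choice in the fall was not tested.

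Several members came from the same assembly component, a cluster of contigs with shared sequence, and reads may be divided among them. This held for 15 members in 7 components. Ranks 15 and 16 of 1 component had nearly the same course. Their fitted log2 changes at 7 d were -2.05 and -1.83, and those at 14 d were -1.0 and -0.85. Ranks 111 and 120 had -0.95 and -0.89 at 7 d, and -0.05 and 0.04 at 14 d. Ranks 2 and 21 were both low in control replicate 3, rank 21 with 1784, 1881 and 731 CPM in control leaves. Ranks 9 and 124 were both highest in 14 d replicate 3, rank 124 with 257, 235 and 963 CPM at 14 d. By contrast ranks 4 and 26 of 1 component had fitted changes of -1.04 and -0.12 at 7 d. These genes are named here for their shared component and their values, not by the rule for named genes.

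In most of the 125 genes the same isoform led in control, 7 d and 14 d leaves. In 30 genes a single isoform had counts, and the other 95 had 2 or more, with a median of 3 over all 125 and at most 12. The leading isoform held a median of 88.8% of the gene in control leaves, 90% or more in 61 genes and under 50% in 18. In genes with 2 or more isoforms, the share of the isoform that led in control leaves moved by a median of 2.84 percentage points at 7 d and 2.32 at 14 d. Some genes moved much further without a change of lead. In rank 78 this share was 83.5%, 78.9% and 79.2% in control leaves and 52.7%, 49.7% and 47.6% at 7 d. At 14 d it was 67.3%, 69% and 67.3%. Another isoform led at 7 d in 6 genes and at 14 d in 8. The share of the isoform that led in control leaves did not overlap with control in 5 of the 6 and in 6 of the 8. These genes were picked because that isoform lost its lead, so a lower share follows from the choice. No such count was made over all genes. Rank 104 is among the 5 at 7 d. The shares in it were 0.381%, 45.2% and 0.788% in control leaves and 0% in each 7 d library.

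In rank 79 another isoform led at both salt times. Its leading control isoform made up 33.1%, 36.5% and 35.9% of the gene in control leaves, 12%, 14.8% and 14.2% at 7 d, and 13.6%, 19.8% and 20.6% at 14 d. In rank 96, one of the genes that fell most, it made up 38.9%, 45% and 39.6% in control leaves, 25.3%, 33.7% and 29.5% at 7 d, and 8.46%, 11.3% and 28.3% at 14 d. In rank 104 the isoform that led the control mean held 45.2% of the gene in control replicate 2 and at most 0.788% in any other library. Rank 1 had 2 isoforms above 5%, and its leading control isoform varied among controls from 44.9 to 72.9%. How reads shared by isoforms are divided is estimated, so these shares are less certain than the sums per gene. Ranks 1, 78, 79, 96 and 104 were picked out after their values were seen.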

How the data were processed

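The deposited table holds estimated counts per assembled transcript and library, whole numbers that the authors did not scale, per the file headers and values. Per the submitters' processing notes the tools included Salmon, HISAT2 and FastQC, with neither role nor version. Identifiers have the form Trinity gives, and no assembly setting is given in the sources used here. Of 416949 transcript rows, those sharing a gene identifier were added to 315331 genes, 306838 of them with a count.

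Counts were tested in R 4.3.3 with edgeR 4.0.16: expression filter (minimum count 10, minimum total 15, leaving 62564 genes with 97.3 to 97.78% of the counts of a library), TMM scaling, and 1 quasi-likelihood model of group means over all 9 libraries. The common biological coefficient of variation was 0.193. Adjusted p-values are Benjamini-Hochberg over all genes tested, and calls were made below 0.05. Fitted log2 changes, and the counts of called genes at least 2-fold or 4-fold changed, use TMM scaling. CPM, other folds and shares use library totals. The SE was derived from the fitted change and its p-value. The test was checked on simulated counts. Alternatives were DESeq2 1.42.0, total-count and upper-quartile scaling, no filter, an adjusted p below 0.01, fits of 2 groups, the replicate number as a block, and each library left out. Other work used Python 3.11.15, pandas 2.3.3 and matplotlib 3.10.9.

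The members, lists and rules were chosen with earlier results of these data known. Named were ranks 1 to 10, the 3 largest called rises and falls in each comparison, the 3 highest and 3 lowest control coefficients of variation, and the genes beside the cutoff. Identifiers were printed for the 2 highest and 2 lowest mean changes among members called the same way at both times without overlap with control.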

Additional observations from a re-analysis of the deposited data

Results flagged for a closer look

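The effects of salt at 7 d and 14 d differed by the direct test between these times (edgeR quasi-likelihood, adjusted over all genes) in 59 of the 125 genes. Among the genes named, ranks 5, 6, 12, 52, 58, 113 and 121 were higher at 14 d, by 1.28, 0.89, 1.84, 0.56, 1.81, 0.94 and 1.90 on the log2 scale. Lower at 14 d were rank 3 with a difference of -0.92, rank 8 with -0.92, rank 10 with -1.25, rank 37 with -1.16, rank 69 with -0.74, rank 109 with -0.51 and rank 112 with -1.14. Groups of 3 libraries are too small for a search for single outlying samples.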

How the results depend on the processing

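Counts of members called against control stayed within 1.5 times the reported count under every alternative run, in total and in each direction: 76 to 91 at 7 d and 54 to 79 at 14 d. Leaving out each library in turn gave 77 to 90 at 7 d and 61 to 71 at 14 d, and for 14 d against 7 d 42 to 74 in total and 33 to 47 higher. The 16 members lower at 14 d than at 7 d became 9 at an adjusted p below 0.01, 28 without a filter on low counts, and 9 to 27 with a library left out. All genes called between the salt times numbered 7045, and 3358 to 9429 with a library left out. Correlations of deviations between groups ran from -0.0734 to 0.263 for libraries of the same number and from -0.193 to 0.166 for others. Between the salt times they were 0.00961, 0.263 and 0.136 for the same number and -0.193 to 0.0746 for others. Whether libraries of the salt times were paired was not tested. With a replicate block 85, 69 and 64 members were called in the 3 comparisons, against 83, 71 and 59 without it. With the block, the difference between the salt times was called in rank 71 (0.62, edgeR adjusted p = 0.0343) and rank 47 (0.78, edgeR adjusted p = 0.00786).

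The share of counts in control leaves was 14% in control replicate 3 with genes chosen without it, 10.5% at a cutoff of 1000 CPM, 6.01% at 2000 CPM and 12.7% without ranks 1, 2 and 4, against 15.8%. Without those 3 genes, left out after the data were seen, it was 10.2% at 7 d and at 14 d, against 12.1% and 12.5%. The median change at 7 d was -0.66 when genes chosen without control replicate 2 were set against it. Of 46 called changes of named genes, 6 lost their call under at least 1 alternative and none turned direction. Of 26 that were not called, 14 were called under at least 1, and 7 changed sign. With a library left out, the difference between the salt times ran from -0.03 to 0.58 in rank 1, from -0.24 to 0.17 in rank 2 (0.01 without 7 d replicate 1) and from -0.50 to 0.08 in rank 9. The change against control ran from -0.77 to 0.07 in rank 4 at 14 d, from -0.47 to 0.06 in rank 7 at 7 d, from -0.16 to 0.41 in rank 9 at 14 d and from -0.01 to 0.12 in rank 113 at 14 d. The cause of these moves was not tested.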
